A study of Mus musculus with 6 samples.

Results

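The 9 genes described here encode 3 JAK kinases (*Jak1*, *Jak2* and *Jak3*) and 6 STAT transcription factors (*Stat2*, *Stat3*, *Stat4*, *Stat5a*, *Stat5b* and *Stat6*), taken by gene symbol from the 24420 genes of the deposited count table. Other genes of the same families are not reported here. RNA was sequenced from YFP+ regulatory T (Treg) cells of the lymph nodes of female C57BL/6 mice in 6 samples, each labelled with a number of its own and called a mouse here. The 3 OGT-sufficient mice were Foxp3YFP-Cre/wt Ogtwt/fl, and the 3 OGT-deficient mice were Foxp3YFP-Cre/wt Ogtfl/fl. OGT is the only enzyme that places O-GlcNAc, a single sugar residue, on proteins in the nucleus and cytosol. All 6 mice therefore carried Cre, driven by the *Foxp3* locus, and at least 1 floxed *Ogt* allele. *Foxp3* and *Ogt* both lie on the X chromosome, so Cre was active in only some of the Treg cells of each female, and the mice also held Treg cells without Cre. The labels give no age and the study's methods only a general range for adult mice, and the labels do not say on which X chromosome the floxed allele of the Ogtwt/fl mice lies.

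JAK kinases are bound to the inner ends of cytokine receptors. When a cytokine joins its receptor chains, the kinases phosphorylate the receptor and then a STAT protein, which dimerises, enters the nucleus and binds DNA at short palindromes of the form TTCNNNGAA. In Treg cells the best known route runs from IL-2 through JAK1 and JAK3 to STAT5A and STAT5B, which act on *Foxp3* and on *Il2ra*, while SOCS proteins, themselves STAT targets, shut the signal down. The question the comparison addresses is whether the transcripts of these kinases and factors differ when OGT is deleted, in a study of O-GlcNAc and of the IL-2 and STAT5 pathway. RNA counts carry no information on the phosphorylation or O-GlcNAc of the proteins.

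STAT5A and STAT5B are near-identical proteins made by neighbouring genes, and the sequence the genes share decides how well a read can be assigned to either. In GENCODE M21 on GRCm38 (mm10), *Stat5b* (ENSMUSG00000020919.11) lies on the minus strand at chr11:100780731-100850724 and *Stat5a* (ENSMUSG00000004043.14) on the plus strand at chr11:100859351-100885169, 8626 bases apart. *Stat3* (ENSMUSG00000004040.16, minus strand, chr11:100885098-100939540) follows, and its exons overlap the exons of *Stat5a* by 72 bases on the opposite strand. The longest identical run of the longest coding transcripts of *Stat5a* and *Stat5b* was 324 bases, all of it coding. It covers exons 7, 8 and 9 of *Stat5a* in part or whole (chr11:100874023-100874133, chr11:100874339-100874490 and chr11:100874923-100874983) and exons 6, 7 and 8 of *Stat5b* (chr11:100798591-100798701, chr11:100798234-100798385 and chr11:100797741-100797801). Its first 263 bases are shown, on the coding strand, because a read of 50 bases that falls in the run matches both genes equally, and the capitals mark the 152 bases of exon 8 of *Stat5a*:
Stat5a and Stat5b shared run: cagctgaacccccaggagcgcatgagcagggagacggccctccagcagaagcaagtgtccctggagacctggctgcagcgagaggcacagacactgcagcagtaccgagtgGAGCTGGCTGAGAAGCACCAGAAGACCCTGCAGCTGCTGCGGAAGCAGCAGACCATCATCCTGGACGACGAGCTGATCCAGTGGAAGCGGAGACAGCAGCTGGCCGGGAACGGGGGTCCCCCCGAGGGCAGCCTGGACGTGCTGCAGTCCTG
Of the 3839 windows of 50 bases in the *Stat5a* transcript, 608 (15.8%) occur in *Stat5b*, which is 11.8% of the 5164 windows of *Stat5b*. The remaining windows differ by at least 1 base. *Jak3* shares 355 of its 3970 windows (8.94%) with *Insl3*, an overlapping gene on the same strand, but *Insl3* had at most 3 counts in any sample. *Stat4* shares 28.6% of its windows with Gm28177, a gene model that overlaps it and has no row in the count table. No 50-base window of *Stat2*, *Stat3*, *Stat6*, *Jak1* or *Jak2* was found in a transcript of another gene. How the authors' counting treated shared reads and strand is not given in the sources used here. The windows stand for single reads, while the reads were paired, and a mate outside the shared sequence can tell the genes apart. The split between *Stat5a* and *Stat5b* is therefore uncertain, by an amount that the windows alone do not give.

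The 6 libraries held 3375454 to 4103552 counts, of which the ribosomal RNA gene *Rn45s* took 24.2% to 37.1%. OGT-sufficient replicate 3 stood apart: 18346 genes were detected in it, where the other libraries had 14412 to 15197, and it had reads on 310 of 1125 olfactory receptor genes, where they had reads on 13 to 56. Values are given in the order of replicates 1, 2 and 3. *Ogt*, which Cre deletes, had 562, 632 and 957 counts in the OGT-sufficient against 327, 266 and 368 in the OGT-deficient mice, which put the OGT-deficient level at 43.3% of the OGT-sufficient one (95% interval 31.1 to 60.4, adjusted p = 0.191, edgeR's quasi-likelihood test, 0.000301 unadjusted), a log2 fold change of -1.21. Replicate 3 had the highest OGT-sufficient count, and without it the log2 fold change was -0.94. The defining Treg genes were present in every library, with *Foxp3* at 719 to 1116 counts and the summed level of 7 Treg and T cell genes at 1989 to 2954 CPM in OGT-sufficient and 2696 to 2931 CPM in OGT-deficient samples. CPM is the count relative to the library size after edgeR's TMM scaling. All 10 macrophage markers were detected, and their summed level was 1837 to 3953 CPM in OGT-sufficient and 1362 to 5686 CPM in OGT-deficient samples. The 7 B-cell markers summed to 88.5 to 331 CPM and 90.6 to 150 CPM, the 6 erythroid markers in the table to 211 to 835 CPM and 211 to 470 CPM, with *Hba-a1* at 0, the 6 CD8 and NK cell markers to 31.9 to 40.9 CPM and 19.3 to 37.3 CPM, and the 4 neutrophil markers in the table to 13.7 to 137 CPM and 6.68 to 12.8 CPM. The mean log2 level of the 10 macrophage markers was also tried as a covariate. With it, 0 of the 9 JAK and STAT genes passed an unadjusted p under 0.05. Of all genes tested in that fit, 4.85% were lower and 3.32% higher at this threshold. The part of the other markers in the results was not tested. The highest B-cell, erythroid, CD8 and NK cell and neutrophil sums were all in OGT-sufficient replicate 3. In bulk RNA of sorted cells, fewer cells of a type and less RNA per cell cannot be told apart.

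All 9 genes passed the low-count filter, with the lowest count of any of them being 182 (*Stat5a* in OGT-sufficient replicate 3). They are therefore measured with little counting error: the counting error alone was 1.77% of the level for *Jak1* and 6.51% for *Stat5a*, the largest of the 9. Their levels differed far more between genes than between genotypes. Per kilobase of exon, *Jak1* was the highest, at 165 ± 8.55 in OGT-sufficient and 175 ± 8.50 CPM per kb in OGT-deficient Treg cells (SD, n = 3 each), and in every sample it was 2.82 to 3.55 times the level of *Stat6*. *Stat6*, the factor of IL-4 signalling, followed at 56.1 ± 5.11 and 52.1 ± 2.17 CPM per kb, and was 1.60 to 1.98 times the level of *Jak2*, with no overlap over the 6 samples. Below it came a group of 4 genes whose neighbours overlapped. *Jak2*, which serves interferon-gamma and single-chain cytokine receptors among others, had 32.8 ± 1.86 and 30.2 ± 2.56 CPM per kb. *Stat5b* had 28.8 ± 3.24 and 32.0 ± 2.01 CPM per kb, and *Stat3*, the factor of IL-6 and IL-10 signalling, had 30.5 ± 2.95 and 29.5 ± 1.74 CPM per kb. *Jak2* was higher than *Stat5b* in 3 of 6 samples, so their order could not be told. *Stat4*, the factor of IL-12 signalling, lay at 25.4 ± 2.46 and 25.4 ± 3.89 CPM per kb, below *Stat3* in 6 of 6 samples though their ranges overlapped. A gap followed, as *Stat4* was 1.49 to 1.90 times *Stat5a* in every sample. The lowest 3 genes overlapped: *Stat5a* had 14.5 ± 2.21 and 16.5 ± 2.28 CPM per kb, *Jak3* had 16.1 ± 1.85 and 13.8 ± 1.5 CPM per kb, and *Stat2*, which pairs with IRF9 in the type I interferon response, had 13.9 ± 0.759 and 14.7 ± 3.21 CPM per kb. The exon lengths come from GENCODE M21, which may differ from the models the authors counted on. They include the sequence that *Stat4*, *Stat5a*, *Stat5b* and *Jak3* share with other genes. How reads in shared sequence were counted is not given, and their part in the order of the genes was not tested. Macrophage markers summed to as much as 5686 CPM in these libraries (OGT-deficient replicate 3), and the part of other cells in the levels was not tested.

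**Figure D1:**
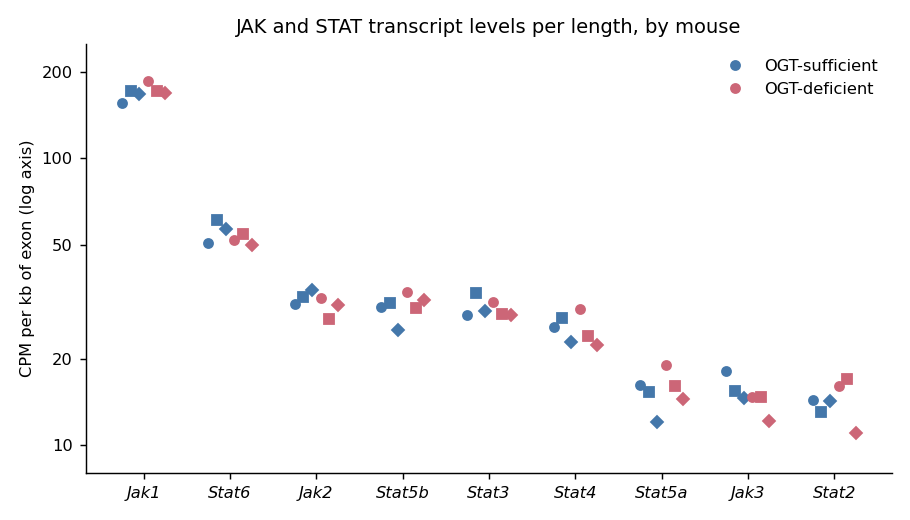
TMM-scaled CPM per kilobase of exon (log axis) of the 9 JAK and STAT genes in each of the 6 mice, with blue for OGT-sufficient and red for OGT-deficient mice and the circle, square and diamond for replicates 1, 2 and 3. *Jak1* lies between 155 and 185 in all 6 mice and *Stat2* between 11 and 17, where it overlaps *Stat5a* and *Jak3*.

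Between the genotypes, no difference in the 9 genes passed a threshold. By edgeR's quasi-likelihood test over the 10949 genes tested, 0 of the 9 passed a false discovery rate (FDR) of 0.1, which 0.0274% of all genes tested passed. At an unadjusted p under 0.05 it was again 0 of 9, against 7.1% of all genes tested, and DESeq2 and edgeR's exact test also gave 0 of 9 at either threshold. The samples of the groups overlapped in 9 of 9 genes, where they did not overlap in 13.2% of all genes tested. With shares this small, a count of 0 in 9 does not set the JAK and STAT genes apart from other genes. The 95% intervals bound the differences: the lowest bound of the 9 was that of *Jak3*, at 69.2% of the OGT-sufficient level, and the highest that of *Stat5a*, at 146%. No interval of the 9 therefore held a change of the size seen for *Ogt*, 43.3%.

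**Figure D2:**
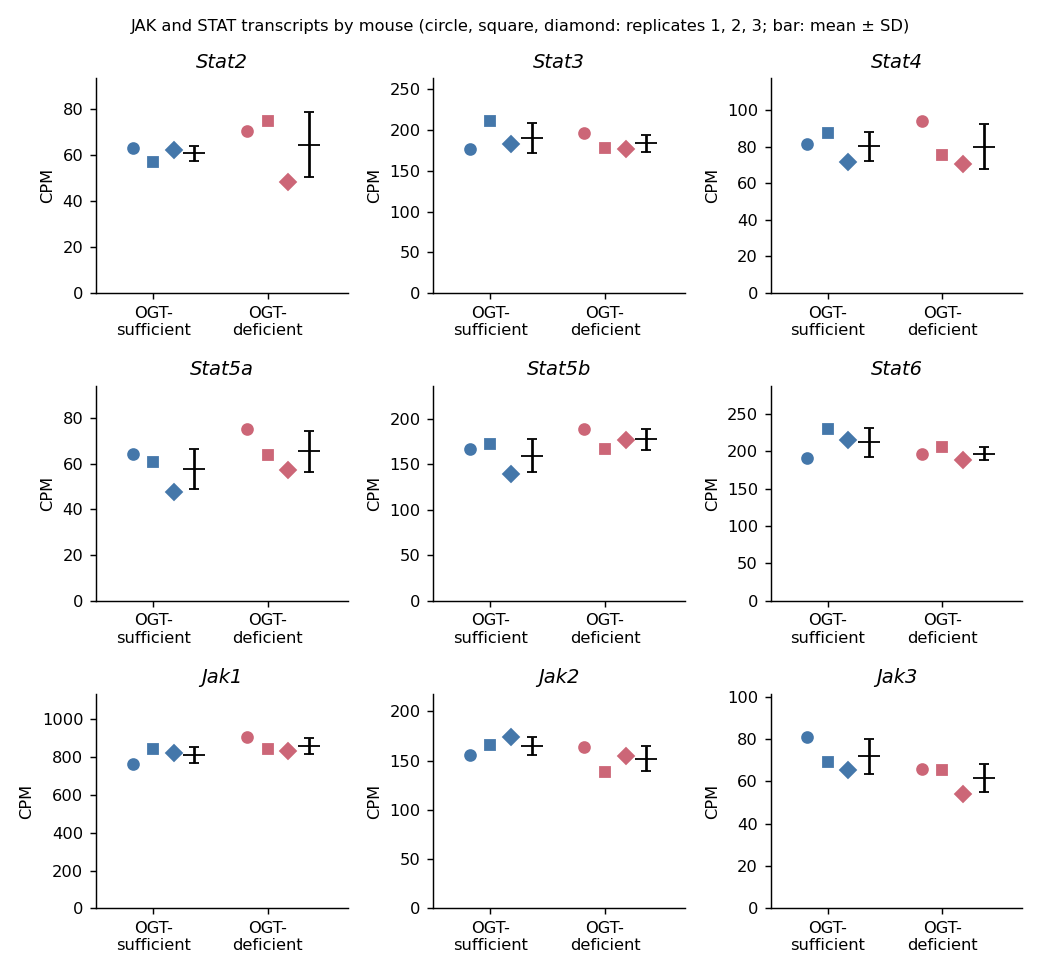
Level of each of the 9 genes in CPM for each mouse, with blue for OGT-sufficient, red for OGT-deficient, circle, square and diamond for replicates 1, 2 and 3, and the black mark and bar for the mean ± SD (n = 3). The mice of the groups overlap in every panel.

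The STAT5 genes, the end of the IL-2 route, both had a higher mean in OGT-deficient cells. *Stat5a* had 242, 226 and 182 counts in the OGT-sufficient against 293, 254 and 220 in the OGT-deficient mice. The lowest of these was OGT-sufficient replicate 3 and the highest OGT-deficient replicate 1, with the other 4 samples mixed. *Stat5a* was at 57.6 ± 8.75 CPM in OGT-sufficient and 65.6 ± 9.03 CPM in OGT-deficient cells (SD, n = 3 each), with log2 fold change 0.19 (standard error 0.16, 95% interval -0.17 to 0.54, adjusted p = 0.837, edgeR's quasi-likelihood test). *Stat5b* had 628, 644 and 531 counts in the OGT-sufficient against 735, 661 and 678 in the OGT-deficient mice. In CPM, OGT-deficient replicate 2 fell among the OGT-sufficient samples, so the groups overlapped. *Stat5b* was at 160 ± 18 and 177 ± 11.2 CPM (SD, n = 3 each), with log2 fold change 0.15 (standard error 0.12, 95% interval -0.12 to 0.43, adjusted p = 0.819). At the lower ends of these intervals *Stat5a* would be at 88.9% and *Stat5b* at 91.8% of the OGT-sufficient level, so a larger loss of either transcript lay outside the 95% interval. OGT-sufficient replicate 3 had the lowest level of both genes, and without it the log2 fold changes were 0.08 and 0.07.

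The balance of the pair overlapped between the genotypes. *Stat5a* took 27.8%, 26.0% and 25.5% of the summed *Stat5a* and *Stat5b* counts in the OGT-sufficient and 28.5%, 27.8% and 24.5% in the OGT-deficient mice. The 95% Wilson intervals, which cover counting error only, ran from 21.8% to 31.3% over the 6 samples and overlapped one another. The mean share was 26.4% ± 1.21 in OGT-sufficient and 26.9% ± 2.13 in OGT-deficient cells (SD, n = 3 each), a difference of 0.480 percentage points (exact permutation test, two-sided, p = 0.9, where 3 mice against 3 cannot go below 0.1). The summed level, which does not depend on which of the pair a shared read was given to, although it would on shared reads being dropped or counted for both, was 217 ± 26.3 and 243 ± 18.4 CPM (SD, n = 3 each, exact permutation p = 0.4). By mouse it was 232, 233 and 187 CPM (OGT-sufficient) and 264, 231 and 234 CPM (OGT-deficient). The sums and ratios beside the share were added after the values had been seen. Of the 36 pairs of the 9 genes, *Stat5a* and *Stat5b* followed each other most closely over the 6 samples (Pearson r of log2 CPM = 0.864, n = 6), and the part of the shared reads in this was not tested. The genes whose pattern over the 6 samples was most like that of *Stat5a* were *Slc35a4* (r = 0.993), *Sri* (0.991) and *St6gal1* (0.987), and for *Stat5b* they were *Smg8* (0.995), *Cnp* (0.993) and *Twf2* (0.993). With 6 points, 200 of 10948 genes reached an r of 0.9 with *Stat5a* and 201 with *Stat5b*, so these names are a description.

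**Figure D3:**
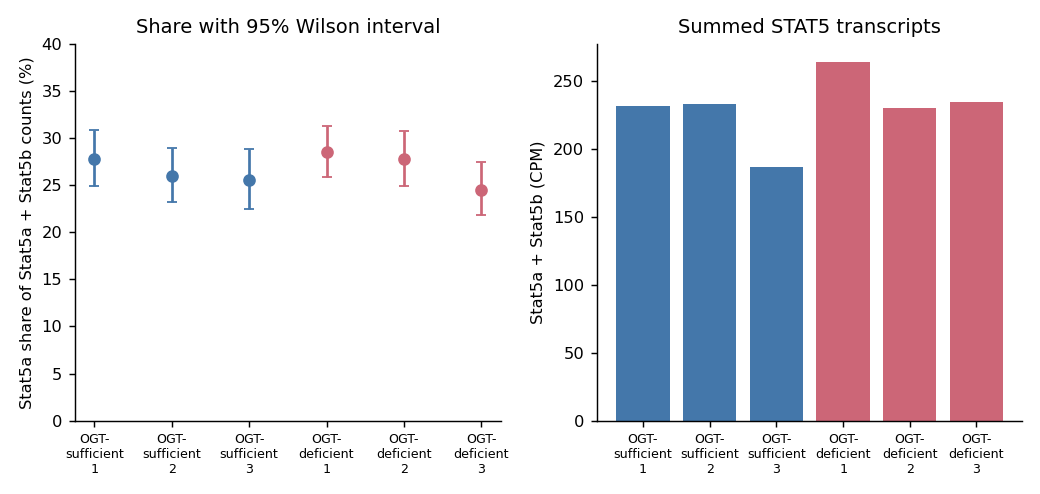
Left, the share of *Stat5a* in the summed *Stat5a* and *Stat5b* counts of each mouse in percent, with 95% Wilson intervals that cover counting error. Right, the summed level in CPM, in which OGT-sufficient replicate 3 is the lowest (187) and OGT-deficient replicate 1 the highest (264).

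None of the 3 kinases described here passed a threshold, and each 95% interval held 0. *Jak1*, which serves nearly every receptor of the IL-2, IL-6 and interferon families, had 2862, 3136 and 3144 counts in the OGT-sufficient against 3534, 3345 and 3181 in the OGT-deficient mice. It was at 809 ± 42.0 and 860 ± 41.7 CPM (SD, n = 3 each), with log2 fold change 0.09 (standard error 0.11, 95% interval -0.17 to 0.34, adjusted p = 0.898). *Jak3*, the kinase bound to the common gamma chain, had 305, 258 and 249 counts in the OGT-sufficient against 256, 260 and 207 in the OGT-deficient mice. The lowest sample was OGT-deficient replicate 3 and the highest OGT-sufficient replicate 1, while the other 4 lay between 65.3 and 69.2 CPM. *Jak3* was at 71.9 ± 8.27 and 61.8 ± 6.71 CPM (SD, n = 3 each), and its log2 fold change of -0.22 (standard error 0.14, 95% interval -0.53 to 0.09, adjusted p = 0.773) was the largest in size of the 9 and had the lowest unadjusted p, 0.148. Its likest genes over the 6 samples were *Tipin* (r = 0.984), *1500011K16Rik* (0.981) and *Ppat* (0.978). *Jak2* had between 548 and 665 counts, at 165 ± 9.34 and 152 ± 12.9 CPM (SD, n = 3 each, log2 fold change -0.12, 95% interval -0.38 to 0.14).

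JAK1 and JAK3 work as a pair on receptors with the common gamma chain, and the ratio of their transcripts was looked at after the values had been seen. The log2 ratio of *Jak1* to *Jak3* counts was 3.23, 3.60 and 3.66 in the OGT-sufficient and 3.79, 3.69 and 3.94 in the OGT-deficient mice. The groups did not overlap, but their nearest samples, OGT-sufficient replicate 3 and OGT-deficient replicate 2, were at 3.66 and 3.69. The mean was 3.50 ± 0.233 and 3.8 ± 0.129 (SD, n = 3 each, exact permutation p = 0.1, the smallest this design allows, and 0.6 after Benjamini-Hochberg adjustment over the 6 single values compared in this way). The adjustment does not cover the choice of this pair, which had the lowest correlation of any pair of the genes described here (Pearson r of log2 CPM = -0.483, n = 6).

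The remaining STAT genes lay within the spread between mice. *Stat3* had 663, 786 and 696 counts in the OGT-sufficient against 764, 707 and 678 in the OGT-deficient mice, at 190 ± 18.4 and 184 ± 10.8 CPM (SD, n = 3 each). *Stat4* had 305, 325 and 274 counts and 365, 300 and 270 counts in the same order, at 80.1 ± 7.74 and 79.9 ± 12.2 CPM. Their log2 fold changes of -0.05 (95% interval -0.31 to 0.21) and -0.002 (-0.33 to 0.32) were the smallest of the 9. *Stat6* had between 719 and 856 counts and a log2 fold change of -0.11 (95% interval -0.36 to 0.15), at 212 ± 19.3 and 197 ± 8.20 CPM. *Stat2* had 238, 213 and 238 counts in the OGT-sufficient against 275, 297 and 186 in the OGT-deficient mice. OGT-deficient replicates 1 and 2 were the highest and OGT-deficient replicate 3 the lowest of the 6, so its spread was 3.34 CPM (SD) around 61.0 CPM in the OGT-sufficient and 14.1 CPM around 64.7 CPM in the OGT-deficient mice. Its log2 fold change was 0.09 (95% interval -0.30 to 0.47). With single replicates left out it ran from 0.00059 to 0.29, the highest without OGT-deficient replicate 3. Over all 6 samples the coefficient of variation was 5.60% for *Jak1*, 7.44% for *Stat3*, 7.64% for *Stat6*, 7.79% for *Jak2*, 9.81% for *Stat5b*, 11.5% for *Stat4*, 13.1% for *Jak3*, 14.7% for *Stat5a* and 15.0% for *Stat2*. The summed level of the 6 STAT genes was 760 ± 52.0 and 768 ± 51.3 CPM, and that of the 3 JAK genes 1046 ± 41.7 and 1074 ± 54.6 CPM (SD, n = 3 each, exact permutation p = 0.7 and 0.6).

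**Figure D4:**
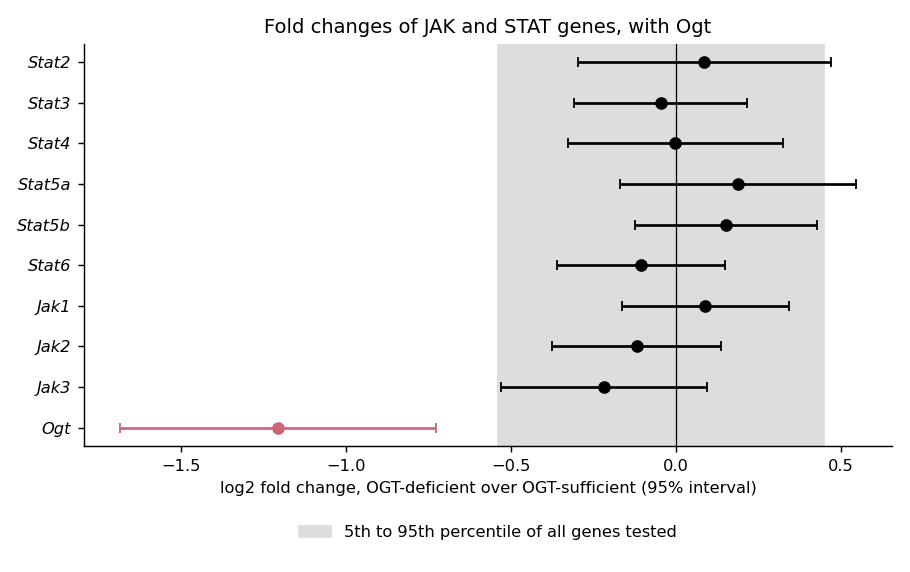
Log2 fold change of OGT-deficient over OGT-sufficient Treg cells with its 95% interval for the 9 genes and *Ogt*. The shaded band runs from the 5th to the 95th percentile of all 10949 genes tested, from -0.54 to 0.45, and holds the estimates of all 9 genes but not that of *Ogt*.

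While none of the 9 genes passed a threshold, several genes around them had an unadjusted p under 0.05. The pathway was described from lists of 78 genes, chosen with earlier results of these data known. Of the 74 tested, 13 were higher and 6 lower in OGT-deficient cells at an unadjusted p under 0.05, against 3.09% higher and 4.01% lower among all genes tested. At an FDR of 0.1 over all genes, 1 of the 74 passed (*Il18rap*), against 0.0274% of all genes tested. *Il18rap* was already known as one of the most changed genes when its list was written. The 74 genes had a median log2 fold change of 0.02, and all genes tested one of -0.02.

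**Figure D5:**
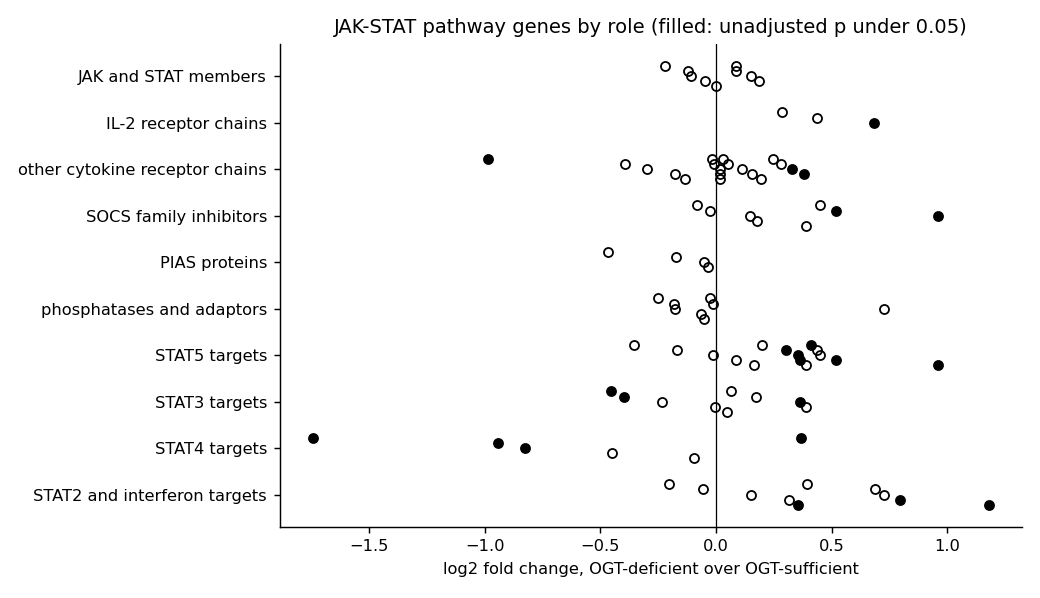
Log2 fold change of OGT-deficient over OGT-sufficient Treg cells for each gene tested, in rows by role, with filled circles for genes at an unadjusted p under 0.05. The row of the 9 JAK and STAT genes has no filled circle, while the STAT5 target row has 6, all on the positive side.

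At the top of the route, the 3 chains of the IL-2 receptor all had a higher mean in OGT-deficient cells. *Il2rb*, the signalling chain shared with the IL-15 receptor, had 1249, 1629 and 881 counts in the OGT-sufficient against 2184, 1918 and 2155 in the OGT-deficient mice. Every OGT-deficient sample was above every OGT-sufficient one. The level was 333 ± 103 and 536 ± 45.3 CPM (SD, n = 3 each), with log2 fold change 0.68 (standard error 0.21, unadjusted p = 0.00972, adjusted p = 0.531). *Il2ra*, which encodes CD25, was at 474 ± 141 and 641 ± 13.6 CPM (log2 fold change 0.44, unadjusted p = 0.0579), and *Il2rg*, the common gamma chain, at 275 ± 21.4 and 334 ± 66.8 CPM (log2 fold change 0.28, unadjusted p = 0.106), so neither passed. OGT-sufficient replicate 3, the library with the lowest Treg sum, had the lowest level of all 3 chains, and without it the log2 fold change of *Il2rb* was 0.49, that of *Il2ra* 0.24 and that of *Il2rg* 0.23. Of the 21 other receptor chains that signal through JAK kinases, 19 were tested. At an unadjusted p under 0.05, 2 of the 19 were higher and 1 was lower, against 3.09% and 4.01% of all genes tested. *Il6st*, which encodes gp130, the shared chain of the IL-6 family, was higher (log2 fold change 0.38, unadjusted p = 0.00891, 269 ± 19.0 and 350 ± 27.0 CPM), as was *Il6ra* (0.33, unadjusted p = 0.0299), although *Il6ra* was at an unadjusted p of 0.0517 without OGT-sufficient replicate 3. *Il9r* was lower (-0.99, unadjusted p = 0.00538), at 11.4 ± 1.93 and 5.75 ± 1.49 CPM. *Il12rb1* had a log2 fold change of -0.30 (unadjusted p = 0.179), and the median of the 19 was 0.02.

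Among the inhibitors, 2 of the 8 SOCS family genes, all of them tested, were higher at an unadjusted p under 0.05 and 0 were lower, against 3.09% and 4.01% of all genes tested. *Socs2*, best known as the brake on growth hormone signalling through STAT5, had 67, 57 and 42 counts in the OGT-sufficient against 111, 115 and 109 in the OGT-deficient mice. The lowest OGT-deficient level, 28.4 CPM, was well above the highest OGT-sufficient one, 17.8 CPM. The level was 14.7 ± 3.45 and 28.6 ± 0.287 CPM (SD, n = 3 each), with log2 fold change 0.96 (standard error 0.19, unadjusted p = 0.00082, adjusted p = 0.225), or 0.80 without OGT-sufficient replicate 3, its lowest sample. *Cish*, which binds the receptor in competition with STAT5, had 279, 288 and 170 counts in the OGT-sufficient against 377, 361 and 358 in the OGT-deficient mice. The groups did not overlap, and OGT-sufficient replicate 3 was the lowest. *Cish* was at 65.4 ± 18.1 and 93.7 ± 2.96 CPM (log2 fold change 0.52, standard error 0.19, unadjusted p = 0.0253, adjusted p = 0.627), with a log2 fold change of 0.32 without OGT-sufficient replicate 3. *Socs1* (log2 fold change 0.45, unadjusted p = 0.192) and *Socs3* (0.39, unadjusted p = 0.0595) had overlapping groups. *Socs4*, *Socs5*, *Socs6* and *Socs7* lay between -0.08 and 0.18. At an unadjusted p under 0.05, 0 of 4 PIAS genes and 0 of 8 phosphatase and adaptor genes passed. Of all genes tested, 7.1% passed, so counts of 0 in lists this short do not set them apart. *Pias3* had a log2 fold change of -0.47 (unadjusted p = 0.0793), *Pias4* -0.17, *Pias1* -0.05 and *Pias2* -0.03. *Usp18*, which limits type I interferon signalling at the receptor, had 0.73 (unadjusted p = 0.0553), *Sh2b3* -0.25, *Ptpn2* -0.18 and *Ptpn6* -0.18.

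A list of 15 STAT5 targets was written here from general knowledge. Earlier results of these data were known by then, so its counts are not independent of the data. Of the 15 genes, all tested, 6 were higher in OGT-deficient cells at an unadjusted p under 0.05 and 0 were lower, against 3.09% and 4.01% of all genes tested. Beside *Socs2* and *Cish* they were *Myc* (89.3 ± 7.49 and 119 ± 14.8 CPM, log2 fold change 0.41), the survival genes *Bcl2* (232 ± 19.5 and 297 ± 30.7 CPM, 0.36) and *Mcl1* (486 ± 14.0 and 601 ± 35.5 CPM, 0.30), the last named after its values were seen, and the kinase gene *Pim1* (109 ± 16 and 140 ± 2.06 CPM, 0.36), each mean ± SD with n = 3. Their unadjusted p were 0.0123, 0.0178, 0.0201 and 0.0201, and 0 of the 15 passed an FDR of 0.1 by this test, while DESeq2 and edgeR's exact test each passed 1. In all 6 genes, which were picked by their p, every OGT-deficient sample was above every OGT-sufficient one. Over the whole list the groups did not overlap in 7 of 15 genes, against 13.2% of all genes tested. *Foxp3*, also a STAT5 target, was at 239 ± 55.9 and 274 ± 22.6 CPM (log2 fold change 0.20, unadjusted p = 0.269). The count of 6 was 4 with library size only, against 1.96% of all genes tested that were higher there. Without OGT-sufficient replicate 2 it was 9, against 3.28%. Without OGT-sufficient replicate 3 it was again 6, against 3.33%. The median log2 fold change of the 15 genes was 0.36, or 0.27 without OGT-sufficient replicate 3. The list holds genes that many other signals also act on, and what moved them was not tested.

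The promoters of *Cish* and *Socs3* are shown because they hold the STAT palindrome TTCNNNGAA and their levels bear on the route downstream of STAT5. The sequences are from RefSeq on GRCm38.p6, from 250 bases before the annotated start to 30 after it on the strand of the gene, at chr9:107296409-107296688 (plus strand) for *Cish* and chr11:117969337-117969616 (minus strand) for *Socs3*, and capitals mark each TTCNNNGAA:
Cish: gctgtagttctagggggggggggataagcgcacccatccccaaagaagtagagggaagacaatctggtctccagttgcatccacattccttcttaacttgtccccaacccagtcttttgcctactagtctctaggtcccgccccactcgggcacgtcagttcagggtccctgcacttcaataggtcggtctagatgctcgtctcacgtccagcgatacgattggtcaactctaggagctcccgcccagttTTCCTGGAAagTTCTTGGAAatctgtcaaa
Socs3: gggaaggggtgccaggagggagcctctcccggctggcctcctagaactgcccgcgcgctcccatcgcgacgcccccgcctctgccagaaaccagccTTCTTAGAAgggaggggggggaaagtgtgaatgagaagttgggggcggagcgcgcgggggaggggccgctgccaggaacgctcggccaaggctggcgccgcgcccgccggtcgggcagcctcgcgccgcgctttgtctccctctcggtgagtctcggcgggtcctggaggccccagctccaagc
*Cish* holds the motif at 2 places, with first bases at 1 and 12 counted from the annotated start, and *Socs3* at 1 place, at -154. In windows from 250 bases before to 50 after the start, 8.30% of 32851 mouse promoters hold it. The motif reads the same on both strands. It was found in 3 of the 16 windows of the 11 STAT5 target genes with an entry (*Cish*, *Foxp3* and *Socs3*), and in 0 of the 12 windows of the 9 JAK and STAT genes. The form with 4 bases between TTC and GAA, which STAT6 can bind, was also searched, and it was found in 6.95% of all windows and in 1 of the 12, that of *Stat2*. A match is a description of the letters and not of binding.

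The targets of the other STAT factors did not share a direction. Of 9 tested STAT3 targets, 2 were lower and 1 higher at an unadjusted p under 0.05, against 4.01% and 3.09% of all genes tested. *Junb* (134 ± 0.771 and 102 ± 7.27 CPM, log2 fold change -0.40, unadjusted p = 0.0048) and *Batf* (33.6 ± 4.08 and 24.5 ± 3.09 CPM, -0.45, unadjusted p = 0.0202) were lower, and *Pim1*, which is also in the STAT5 list, was higher. *Junb* and *Batf* are transcription factors of the AP-1 family. Of 6 STAT4 targets, 3 were lower and 1 higher at an unadjusted p under 0.05, against 4.01% and 3.09% of all genes tested. The lower ones were *Il18rap* (15.0 ± 0.472 and 4.45 ± 0.608 CPM, log2 fold change -1.74, adjusted p = 0.0837) and *Il18r1* (61.0 ± 10.5 and 34.4 ± 3.71 CPM, -0.82, adjusted p = 0.215), the 2 chains of the IL-18 receptor, and *Tbx21* (-0.94, unadjusted p = 0.0396), which encodes T-bet. Of the CD8 and NK cell markers, 1 of the 4 tested was lower (*Nkg7*, log2 fold change -1.0, unadjusted p = 0.00751) and 0 were higher, against 4.01% and 3.09% of all genes tested. *Cd8a* had -0.82 (unadjusted p = 0.0552), *Eomes* -0.71 and *Cd8b1* 0.18, and the median of the 4 was -0.76 against -0.64 for the STAT4 list. Their part in it was not tested. *Furin* was higher (0.37, unadjusted p = 0.0272), though neither *Tbx21* nor *Furin* had an unadjusted p under 0.05 without OGT-sufficient replicate 3 (0.0867 and 0.0572). *Il18rap* was already known as one of the most changed genes here when the list was written, so its count is not independent of the data. Of 10 tested genes of the STAT2 and interferon list, 3 were higher and 0 lower, against 3.09% and 4.01% of all genes tested. *Ifit3* was at 14.4 ± 5.37 and 32.7 ± 15.9 CPM (log2 fold change 1.18, unadjusted p = 0.0165) and *Ifit1* at 34.7 ± 5.44 and 60.1 ± 28.9 CPM (0.79, unadjusted p = 0.0305), both with overlapping groups. *Irf9*, the partner of STAT2, was at 102 ± 6.03 and 130 ± 14.2 CPM (0.36, unadjusted p = 0.0171) without overlap. *Ifit3* had 180, 146 and 58 counts in the OGT-deficient mice, the lowest in replicate 3, which was also the lowest for *Stat2*. Without OGT-deficient replicate 1, 0 of 11 tested genes of this list were higher, against 3.78% of all genes tested there. Without OGT-deficient replicate 3 it was 6 of 11, against 3.76%, so the interferon count rests on single mice. *Usp18* is in this list too.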

How the data were processed

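Per the labels and the paper's methods, the authors trimmed paired-end reads with Trimmomatic 0.33, checked them with FastQC and aligned them with bowtie2 2.2.4.0. The genome build in the submitters' processing notes is mm10. The methods name Cuffquant for quantification and the processing notes featureCounts, and the annotation and strand setting are not given in the sources used here. The authors deposited whole numbers per gene and sample, used here as counts without normalization. The p-values and fold changes of the authors' own comparison in the same table were not used. RNA came from cells enriched with beads against CD4 and sorted on YFP.

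The test was edgeR's (4.0.16, in R 4.3.3) quasi-likelihood test on counts of genes kept by filterByExpr (minimum 10), with TMM factors and no block on replicate number. P-values were adjusted over 10949 genes by the Benjamini-Hochberg method. Standard errors were derived from each log2 fold change and its F statistic. Alternatives were DESeq2 1.42.0, other scalings and filters, edgeR's exact test, a replicate block, a macrophage covariate and leaving out each sample. Single values were compared with exact permutation tests in Python 3.11.15 with scipy 1.17.1. Gene models are from GENCODE M21, matched by symbol for 9 of 9 genes. Members and lists were chosen with earlier results of these data known. Named genes are the 9 genes, *Ogt*, the IL-2 receptor, SOCS and Treg lists, up to 4 genes with the lowest p in each other pathway list, and the 3 likest genes of *Stat5a*, *Stat5b* and *Jak3*. Other exceptions are marked. No 2 replicates were the same library (chi-square per degree of freedom 3.31 to 22.0). The labels give each sample a number of its own beside the replicate number but do not say whether it marks a mouse or a pool, so p-values measure the spread between these samples.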

Additional observations from a re-analysis of the deposited data

How the results depend on the processing

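The 9 JAK and STAT genes had 0 calls at an FDR of 0.1 and 0 at an unadjusted p under 0.05 in each of the 15 alternatives, where the lowest unadjusted p was 0.0619 (*Stat2*, without OGT-deficient replicate 3). The log2 fold changes of *Stat2*, *Stat5a*, *Stat5b*, *Stat6* and the 3 JAK genes kept their sign in every alternative run. The log2 fold change of *Stat2* was as low as 0.00059 with a replicate left out. That of *Stat3* changed sign without a low-count filter (4.7e-05) and that of *Stat4* without a filter (0.044), with DESeq2 size factors (0.0114), with DESeq2 (0.0114) and with the macrophage covariate (0.0103). With single replicates left out, *Stat3* ranged from -0.096 to 0.0374 and *Stat4* from -0.13 to 0.11. *Socs7* (0.022) and *Pias2* (0.0211) changed sign without a filter, as did *Pias2* with the macrophage covariate (0.0039), and with a replicate left out *Socs4*, *Socs5*, *Socs7* and *Pias2* did too (*Socs4* -0.18 to 0.0411, *Socs5* -0.0039 to 0.33, *Socs7* -0.12 to 0.0896, *Pias2* -0.15 to 0.17). The *Stat5a* share differed by between -0.310 and 1.69 percentage points with a replicate left out, the lowest without OGT-deficient replicate 1. The cause of these changes was not tested.

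Over all genes, 3 passed an FDR of 0.1, against 131 without a filter, 38 with DESeq2, 80 with the exact test, 31 with the macrophage covariate and 0 to 9 with a replicate left out (0 without OGT-deficient replicates 2 or 3, 9 without OGT-sufficient replicate 3). At an unadjusted p under 0.05 these were 777, 1208 without a filter, 452 with DESeq2 and 462 to 889 with a replicate left out, the lowest without OGT-deficient replicate 2. Of the pathway genes, 1 passed an FDR of 0.1 (*Il18rap*, whose adjusted p ran from 2.32e-07 to 0.715 over the alternatives), against 6 without a filter, 3 with DESeq2, 3 with the exact test and 0 to 1 with a replicate left out, where it was 0 without OGT-sufficient replicates 1 or 2 or any 1 of the OGT-deficient replicates. At an unadjusted p under 0.05 it was 19 pathway genes, and 13 to 21 with a replicate left out.

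Samples that share a replicate number did not deviate together (correlations -0.290, 0.0101 and -0.122). These values cannot show whether such samples shared a batch, and the labels do not say what the number stands for. With the replicate block 0 genes and 0 pathway genes passed an FDR of 0.1 (679 genes at an unadjusted p under 0.05), 0 of the 9 JAK and STAT genes passed at either threshold, and the *Stat5a* share differed by 0.480 percentage points. That fit has fewer residual degrees of freedom.

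The median log2 fold change of all genes was -0.02 in the reported test and -0.06 with library size only, so scaling moved it by less than 0.1. Depth limits *Il23r*, *Osmr* and *Il10*, which had at most 4 counts in any sample and were not tested.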
